A study of Mus musculus with 7 samples.

Results

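The cells described here are the intermediate progenitor cells of a mouse study of olfactory neuron formation. They were sorted by fluorescence (FACS) from the olfactory epithelia of Neurog1-GFP animals, and their libraries were chosen by the labels: 4 of the 7 libraries of the study. Each postnatal day has 1 library, at P3, P7, P9 and P16, made from pooled purified cells. All 4 share the genotype Neurog1-GFP and no treatment is labelled. No source used here states how green fluorescent protein (GFP) is driven in this line, how many animals a pool held or their sex. The other 3 libraries are mature neurons of OMP-GFP animals and were not compared.

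The olfactory epithelium makes sensory neurons from globose basal cells, dividing cells that lie near its base. Their daughters switch on Neurog1 and then Neurod1 as immediate neuronal precursors, leave the cell cycle and become immature neurons that carry Gap43 and Gng8. Immature neurons settle on an odorant receptor gene and mature into neurons that carry Omp. A reporter protein can outlast the transcript of the gene it is named for, so a GFP sort can hold cells past the precursor stage.

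Between 24557413 and 25930727 counts fell on genes in each library, and between 25971 and 26120 genes had a count. Levels are in CPM, which sets counts relative to the library total after TMM scaling, with factors between 0.984 and 1.01. On the first principal component, which held 50.7% of the variance, P3 stood at -43.2 and P16 at 38.2, with P9 at -6.85 and P7 at 11.9 between them. On the second component (27.1%), P9 stood at -32.5 and P7 at -6.99, with P3 at 20.2 and P16 at 19.2. Of 18682 tested genes, 639 differed 2-fold between P7 and P9 and 1469 between P3 and P16. The number was 1073 for P3 and P7, 804 for P3 and P9, 767 for P7 and P16 and 982 for P9 and P16. These distances did not simply follow age. Since P3 is 1 library, it is assumed in the tests to vary like the later 3, whose spread also holds age. Nothing in the labels says that the pools came from separate litters, so the p-values measure only the spread between these libraries. In pools, fewer cells of a type and less RNA per cell cannot be told apart.

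Every library held the transcripts that mark the label. Neurog1, the proneural factor of the line's name (chromosome 13, 56250478 to 56252163, minus strand, GRCm38), stood at 863, 342, 494 and 389 CPM at P3, P7, P9 and P16. Neurod1, the factor that follows it, stood at 418, 276, 261 and 277 CPM. Both were highest at P3, and neither passed the test of P3 against the later libraries (edgeR adjusted p = 0.12 and 0.0853). Mki67, a nuclear protein of dividing cells, stood lower in each later library than in the one before, with 196, 167, 141 and 131 CPM. Gap43, a growth cone protein, had 667, 984, 786 and 949 CPM, and Gng8, a G protein subunit of immature neurons, had 145, 189, 149 and 185 CPM. These 2 genes were lowest at P3 and next lowest at P9. Omp, the marker of mature neurons, stood above Neurog1 in every library, at 2714, 1734, 3151 and 3117 CPM, lowest at P7. The mature neuron list (29 genes) summed to 16020, 13970, 18960 and 19210 CPM. The immediate neuronal precursor list (26 genes) summed to 10680, 10250, 9185 and 9606 CPM. The pools thus held many transcripts of mature neurons beside those of precursors.

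The libraries differed in transcripts that depend on sex, and this touches every comparison across age. Eif2s3y, a translation factor gene of the Y chromosome (1010543 to 1028847, plus strand), stood at 0.271, 15.0, 67.6 and 60.6 CPM. The P3 value rests on 7 reads. Ddx3y, a helicase gene, had 0.155, 6.60, 31.4 and 28.1 CPM, Uty, a histone demethylase relative, had 0.155, 5.18, 26.6 and 22.2, and Kdm5d, a histone demethylase, had 0.349, 5.06, 28.9 and 25.6. Xist, the RNA of the inactive X chromosome, stood at 1036, 1418, 394 and 507 CPM. Y-linked transcripts were thus near 0 at P3, low at P7 and high at P9 and P16, with the reverse split for Xist. The sex makeup of the pools and age therefore cannot be told apart in the comparison of P3 with later days or in the trend with age. Leaving Xist and the Y-linked genes out of the fit, a choice made after seeing the data, left the number of called genes at 19 and 0 in these comparisons. This removes only those genes from the list tested and does not adjust the others for sex. Whether the sex makeup of the pools moved the other genes was not tested.

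**Figure D1:**
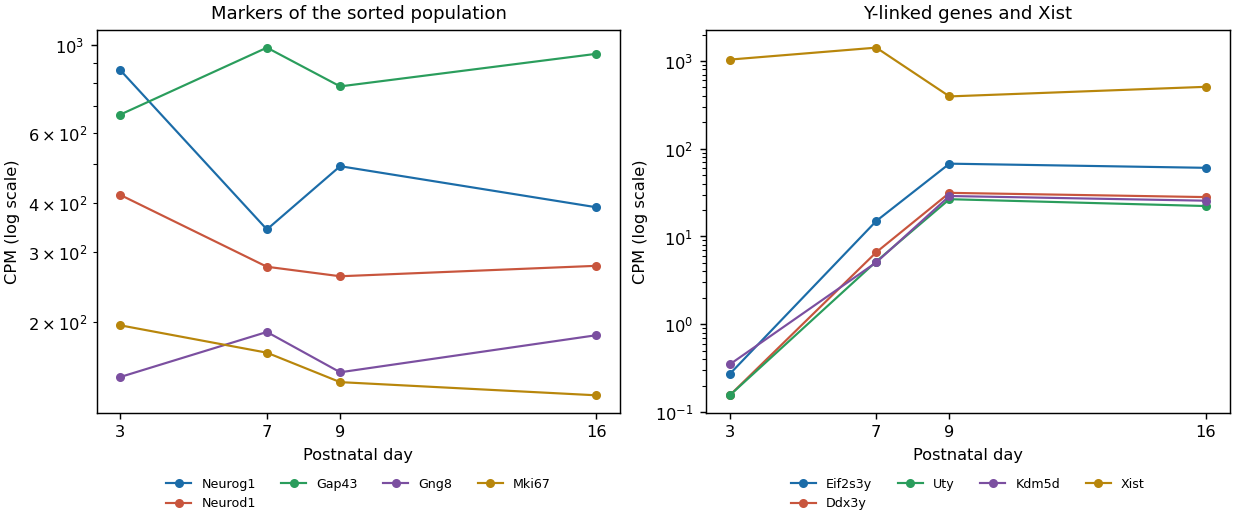
CPM on a log axis against postnatal day in the 4 Neurog1-GFP libraries, 1 point per library, for the 5 markers of the population (left) and for 4 Y-linked genes and Xist (right). Neurog1 is highest at P3 with 863 CPM, and the Y-linked genes are under 1 CPM at P3.

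The first comparison asked which transcripts set P3 progenitors apart from those of P7, P9 and P16. A total of 19 genes were higher at P3 (0.102% of 18682 tested, edgeR quasi-likelihood, adjusted p under 0.05). Of them 7 encode secreted cytokines or chemokines, the signals that call and instruct cells of the immune system. The others include stress and epithelial genes (Hmox1, Cldn4, Nupr1, Ndrg1), inflammation genes (Cd14, Tnfaip3), the mitotic kinase Cdk1 and the precursor genes Mfng and Rcor2. These groups were named after the genes were known. Of the 19, 16 stood at least 2-fold above every later library, against 166 of all tested genes (0.889%). The call and this gap rest on the same values, so the count describes size and adds no support. No gene passed this edgeR test as lower at P3 (0%), although 1001 had an unadjusted p under 0.05 (5.36%), against 1334 higher (7.14%). DESeq2 called 97 genes lower and limma on log2(TPM + 1) 1. DESeq2 called 231 genes higher, 18 of the 19 among them, and limma 10, with 6 of the 19. Leaving out single later libraries changed the edgeR calls. Without P9 or without P7 the calls went in both directions, and without P16 all were higher at P3. A robust edgeR fit also called genes in both directions. In the size description 105 genes (0.562%) stood at least 2-fold below every later library. The same description puts 107 genes above (0.573%) and 144 below (0.771%) for P16. It puts 33 (0.177%) and 43 (0.23%) for P7, and 26 (0.139%) and 72 (0.385%) for P9.

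Upstream sequence is shown for the called genes whose window held a match to the motif described here. The windows come from RefSeq (GRCm38.p6), lie within the 250 bases before a RefSeq start and read 5′ to 3′ on the gene's strand. Capitals mark matches to GGGNNTTTCC on either strand, a form of the site bound by NF-kappaB proteins, the transcription factors best known for switching on inflammation genes. The motif was chosen after the genes were known.
Il6, chr5:30013045-30013104, plus strand: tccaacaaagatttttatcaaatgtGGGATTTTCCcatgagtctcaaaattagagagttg
Cxcl1, chr5:90891131-90891208, plus strand: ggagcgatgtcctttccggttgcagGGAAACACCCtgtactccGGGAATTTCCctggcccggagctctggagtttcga
Cxcl2, chr5:90903777-90903855, plus strand: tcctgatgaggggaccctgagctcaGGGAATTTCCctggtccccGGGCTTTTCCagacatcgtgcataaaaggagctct
Ccl20, chr1:83116661-83116720, plus strand: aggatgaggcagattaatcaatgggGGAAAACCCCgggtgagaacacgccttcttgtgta
Steap4, chr5:7960222-7960280, plus strand: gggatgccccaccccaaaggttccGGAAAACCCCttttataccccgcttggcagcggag
Tnfaip3, chr10:19015411-19015447, minus strand: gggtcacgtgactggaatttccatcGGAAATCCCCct
In the 250 bases before the start, 6 of the 12 called genes with a RefSeq promoter held a match. Over all 27025 genes with a promoter 447 did (1.65%). Lif was among the called genes with no match in this window. The Tnfaip3 window lies inside the gene's GENCODE span, and another RefSeq start of this gene had no match. A match is a run of letters and shows no binding.

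Il6, a cytokine of the acute inflammatory response (chromosome 5, 30013114 to 30019981, plus strand), stood at 41.4 CPM at P3 and at 1.38, 1.43 and 1.18 CPM at P7, P9 and P16. It was 29.0 times the highest later library, and the later libraries lay close together. P3 exceeded the later libraries by 4.96 on the log2 scale (SE 0.17, edgeR adjusted p = 9.23e-04), a call kept under 11 of 11 alternatives (adjusted p from 2.58e-60 to 0.0294). In the authors' TPM values it stood at 70.1 at P3 and 2.12, 2.34 and 1.88 later. Lif, a cytokine of the same family, stood at 10.2 CPM at P3 and at 0.527, 0.618 and 0.470 CPM later (log2 fold 4.23, SE 0.27, edgeR adjusted p = 0.00556). Csf3, the growth factor of granulocytes, whose call was lost by DESeq2 and without P7, had 171 reads at P3 and 3 in the later libraries summed, all at P16. That is a ratio of 170 per library size, with an exact 95% interval from 57.1 to 831 that covers counting error only (edgeR adjusted p = 0.0354).

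The called chemokines attract neutrophils and lymphoid cells, and all of them stood far above their later levels at P3. Cxcl1 (chromosome 5, 90891241 to 90893115, plus strand) stood at 42.3 CPM at P3 and at 1.30, 2.20 and 1.22 CPM later (log2 fold 4.74, SE 0.28, edgeR adjusted p = 0.00477). Its neighbour Cxcl2 stood at 15.3 CPM and then 0.527, 0.347 and 0.588 CPM. Cxcl5 stood at 7.05 CPM and then 0.203, 0.154 and 0.196 CPM. These 3 bind the same receptor, the neutrophil receptor Cxcr2. Ccl20, the ligand of Ccr6, stood at 12.6 CPM and then 0.608, 0.656 and 0.392 CPM. The log2 folds of Cxcl2, Cxcl5 and Ccl20 were 4.96, 5.22 and 4.50. The later libraries of each of these genes lay within 2-fold of one another, as the plot of called genes shows.

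Cd14, Tnfaip3 and Steap4 were also called. Cd14, a receptor part for bacterial lipopolysaccharide, stood at 22.4, 1.99, 3.63 and 3.37 CPM (log2 fold 2.90, SE 0.30, edgeR adjusted p = 0.0468), a call lost without P16 and kept under 6 of 11 alternatives. Tnfaip3, an enzyme that shuts down NF-kappaB signalling, stood at 37.0, 10.9, 12.0 and 8.71 CPM. Steap4, a metalloreductase, stood at 15.0, 1.78, 2.20 and 1.96 CPM. Serpina3n, a protease inhibitor of the acute phase, stood at 9.06, 0.729, 0.926 and 1.45 CPM and did not pass (log2 fold 3.12, edgeR adjusted p = 0.0571). Icam1, an adhesion molecule in the horizontal basal cell list, had 5, 0.891, 1 and 1.69 CPM and was not called.

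The summed level of the leukocyte markers was 19.5 CPM at P3, 22.2 at P7, 20.7 at P9 and 55.3 at P16. None of 20 tested members was called (edgeR), and P3 was the lowest library for 10 and the highest for 1. Over all tested genes these shares were 29.9% and 31.7%. This list does not hold Cd14, which was called higher at P3 (22.4 CPM against 1.99, 3.63 and 3.37 CPM later). Ptprc, the pan-leukocyte surface protein, stood at 0.116, 0.446, 0.232 and 1.45 CPM, and its P3 value rests on 3 reads. The T cell genes Cd3g and Cd3e were at 0 CPM at P3. S100a9, a neutrophil gene, stood at 1.78, 0.648, 0.270 and 5.69 CPM, and S100a8, its partner, at 0.775, 0.284, 0.154 and 3.84 CPM, so P3 was above P7 and P9 but below P16 for both.

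The called genes also held genes of cell stress. Hmox1, the haem-degrading enzyme of the oxidative stress response, stood at 63.6, 8.75, 11.1 and 10.4 CPM (log2 fold 2.66, SE 0.14, edgeR adjusted p = 0.00477). Nupr1, a stress-response chromatin protein, stood at 50.4, 16.4, 17.1 and 13.4 CPM. Ndrg1, a gene known for its response to low oxygen, stood at 117, 51.9, 50.7 and 42.5 CPM. Their log2 folds were 1.69 and 1.28, and the P3 library stood above all others for each. Among the lists of general stress, 13 of 28 immediate early genes were highest at P3 and 1 was lowest, with none called. Over all tested genes the P3 library was highest for 31.7% and lowest for 29.9%. Fos, the immediate early transcription factor, stood at 460, 446, 606 and 253 CPM, highest at P9. Egr2 of this list was also highest at P9, with 18.2, 14.2, 20.2 and 6.67 CPM. Ier3 stood at 37.6, 13.6, 17.8 and 8.08 CPM and Cyr61 at 113.5, 66.0, 91.3 and 32.7 CPM, both highest at P3. In the heat shock list P3 was highest for 7 of 16 genes and lowest for 5, and in the unfolded protein response for 10 and 3 of 22.

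Epithelial genes were called as well. Cldn4, a tight junction protein, stood at 112, 19.8, 22.7 and 17.7 CPM (log2 fold 2.48, SE 0.13, edgeR adjusted p = 0.00477). Csrp1, an actin-associated protein, stood at 60.5, 25.1, 28.3 and 25.2 CPM, and Hsd17b2, a steroid dehydrogenase, at 3.10, 0.284, 0.309 and 0.196 CPM. The keratin Krt8 stood at 148, 60.2, 67.8 and 42.4 CPM and its partner Krt18 at 268, 138, 159 and 92.4 CPM, and neither was called. Krt23 stood at 39.8, 16.2, 16.8 and 10.8 CPM and Krt17 at 16.2, 4.17, 4.21 and 5.72 CPM. Each of these keratins was highest at P3. Krt8, Krt18 and Steap4 are also listed for sustentacular cells, the supporting cells of this epithelium, whose other genes were not highest at P3 as a rule. The list had P3 highest for 4 of 21 genes, against 31.7% of all tested genes. Its summed level was 3686 CPM at P3 and 3601, 4452 and 2848 CPM later. Cyp2g1, its abundant cytochrome, stood at 506, 678, 808 and 434 CPM. The basal keratin Krt5 stood at 4.30, 4.74, 5.33 and 5.02 CPM and the basal cell factor Trp63 at 1.47, 2.15, 2.51 and 2.08 CPM. The part of other epithelial cells in the P3 levels was not tested.

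**Figure D2:**
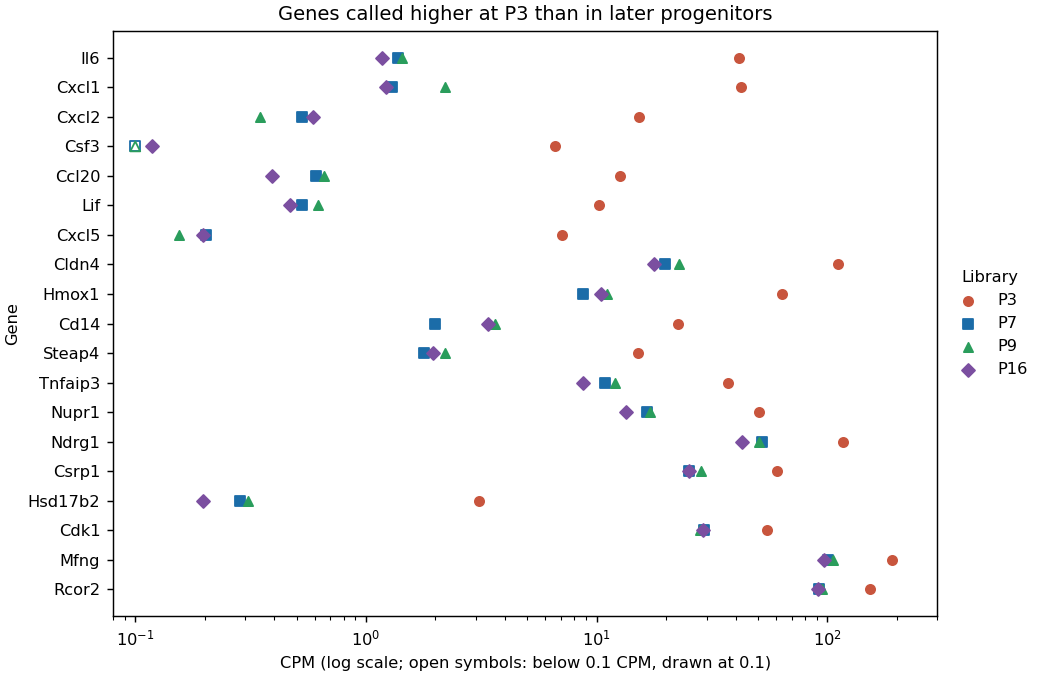
CPM (log axis) of the 19 genes called higher at P3 by edgeR, with 1 symbol per library. The P3 symbol lies right of the 3 later ones for every gene. The gaps are widest for Csf3 and Cxcl5 and narrowest for Rcor2, where P3 stands at 153 CPM and the others at 91.3 to 94.9.

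Glycolysis and oxygen-response genes had P3 highest for 15 of 24 and lowest for none, with a median log2 fold of 0.24 and none called (edgeR). Over all tested genes P3 was highest for 31.7% and lowest for 29.9%, and the median was -5e-04. Egln3, an oxygen-sensing prolyl hydroxylase, stood at 21, 4.09, 4.36 and 2.51 CPM (log2 fold 2.52, SE 0.29, edgeR adjusted p = 0.0571). Slc2a1, the main glucose transporter, stood at 86.2, 41.4, 53.0 and 40.7 CPM and Hk2, a hexokinase, at 33.9, 14.8, 19.9 and 12.6 CPM. Ldha, lactate dehydrogenase, stood at 106, 56.8, 68.9 and 56.0 CPM. These 3 share an order in which P9 comes next after P3. In oxidative phosphorylation P3 was highest for 43 of 57 genes and lowest for 2, with a smaller median of 0.16 and none called. Many genes of both lists have pseudogene copies, so their counts are uncertain.

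Of the immediate neuronal precursor list, 2 of 26 genes were called higher at P3, Mfng and Rcor2, against 0.102% of all tested genes. P3 was the highest library for 17 and the lowest for 3, against 31.7% and 29.9% of all tested genes. The median log2 fold of the list was 0.41. Mfng, a fringe enzyme that tunes Notch receptors, stood at 191, 100, 106 and 96.9 CPM (log2 fold 0.92, SE 0.08, edgeR adjusted p = 0.0314). Rcor2, a corepressor partner of the demethylase Kdm1a, stood at 153, 91.8, 94.9 and 91.3 CPM (log2 fold 0.72, SE 0.07, edgeR adjusted p = 0.0479), a call lost without P7 and without P16. For both genes the later libraries were nearly level, and P3 stood 1.80 and 1.61 times above the nearest of them. Cxcl14, a chemokine gene near Neurog1, stood at 121, 38.6, 55.2 and 40.7 CPM, the same order of libraries as Neurog1 itself. P3 stood above later days by 1.43 on the log2 scale (SE 0.18, edgeR adjusted p = 0.071). Not all precursor genes shared this step. Insm1, a zinc finger factor of neuronal precursors, stood at 462, 488, 434 and 419 CPM, and the fold of P3 over later was 0.05 (SE 0.12) on the log2 scale. Cxcr4, a chemokine receptor of migrating precursors, stood at 164, 127, 111 and 131 CPM.

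The globose basal cell list had P3 highest for 12 of 18 genes and lowest for none, against 31.7% and 29.9% of all tested genes. Its median log2 fold was 0.48, and none of its genes was called (edgeR). Its summed level was 1232 CPM at P3 and between 1008 and 1022 CPM later. Kit, a receptor kinase of these cells, stood at 29.6, 18.4, 20.9 and 14.5 CPM. Tead2, a partner of Yap in growth control, stood at 66.5, 35.2, 37.9 and 32.3 CPM. Trp73, a relative of p53, stood at 12.8, 7.74, 7.61 and 5.92 CPM. Sox2, a factor of stem and supporting cells, stood at 33.0, 33.1, 38.5 and 20.4 CPM, and so was lowest at P16 instead of highest at P3. Kit and Tead2 each had P3 highest and P16 lowest.

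Notch signalling lets one cell hold back the differentiation of its neighbours through membrane ligands and receptors. Of the 24 tested Notch genes 1 was called higher at P3, Mfng, against 0.102% of all tested genes. P3 was highest for 14 and lowest for 2, against 31.7% and 29.9% of all tested genes. Among the ligands, Dll4 stood at 9.26, 3.52, 3.09 and 2.08 CPM, whereas Jag1 stood at 26.4, 18.2, 28.4 and 22.6 CPM. Among the receptors, Notch1 stood at 87.2, 45.7, 38.3 and 34.9 CPM (log2 fold 1.14, SE 0.14, edgeR adjusted p = 0.0683), and Notch2 at 16.1, 15.2, 18.8 and 8.82 CPM. Notch1 and Dll4 were lower in each later library than in the one before. Of the other fringe enzymes, Lfng stood at 57.7, 21, 20.4 and 26.3 CPM and Rfng at 46.8, 52.7, 53.2 and 48.4 CPM. Among the targets, Hes5 stood at 10.5, 3.40, 2.74 and 2.59 CPM (log2 fold 1.85, SE 0.24, edgeR adjusted p = 0.0725), Hey1 at 103, 66.0, 67.6 and 54.3 CPM and Hes1 at 21.3, 22.6, 29.2 and 16 CPM. Hes6, which opposes Hes1, stood at 261, 172, 176 and 139 CPM. Rbpj, the DNA-binding effector of the pathway, was level at 43.6, 41.5, 43.2 and 42.6 CPM.

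Among the lists plotted, mitosis had the largest share of genes highest at P3, 29 of 30, and P3 was lowest for none. Over all tested genes P3 was highest for 31.7% and lowest for 29.9%, and 0.102% were called higher. The median log2 fold of the mitosis list was 0.70, and 1 gene was called, the mitotic kinase Cdk1. Its call was lost without P7 and without P16. Cdk1 stood at 54.7 CPM at P3 and at 29.2, 28.1 and 28.9 CPM later (log2 fold 0.93, SE 0.09, edgeR adjusted p = 0.0468). Top2a, a topoisomerase of dividing cells, stood at 314, 190, 183 and 161 CPM. Aurkb, a kinase of chromosome segregation, stood at 22.5, 11.7, 11.1 and 10.6 CPM, and Bub1b, of the spindle checkpoint, at 51.3, 27.3, 26.7 and 24.3 CPM. The summed level of the list was 1899, 1328, 1247 and 1199 CPM, so most of the difference lay between P3 and P7. In DNA replication P3 was highest for 28 of 32 genes and lowest for 1, with a median of 0.41 and none called. Mcm3, of the replicative helicase, stood at 30.5, 14.8, 17.8 and 13.5 CPM, Cdc6, which loads it, at 6.16, 2.67, 2.70 and 1.92 CPM, and Pcna, the polymerase clamp, at 47.5, 36.4, 38.1 and 36.9 CPM. Uhrf1, which maintains DNA methylation, stood at 30.9, 16.3, 18.9 and 11.8 CPM. Ccnd1, a D cyclin, stood at 74.0, 41.3, 60.0 and 28.7 CPM.

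**Figure D3:**
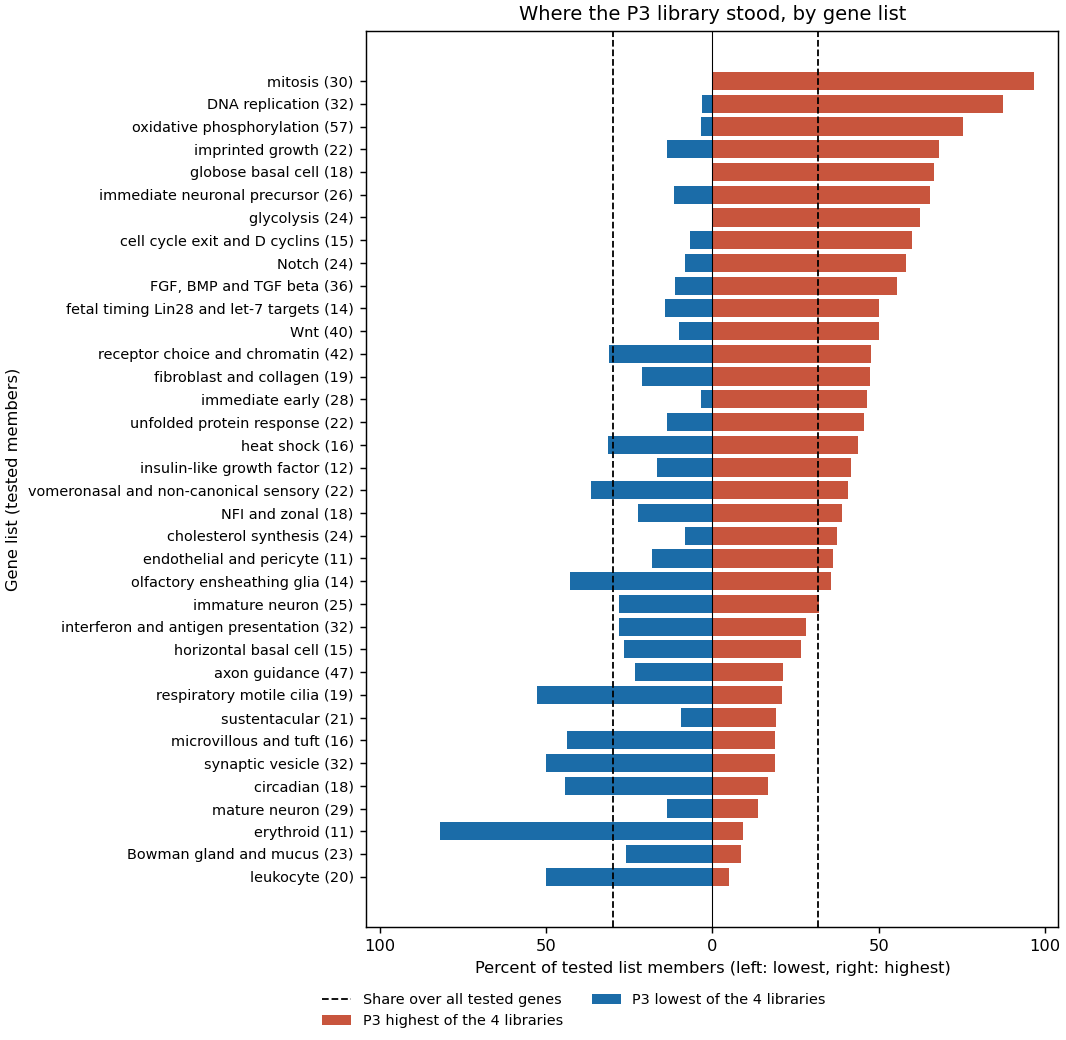
Percent of each gene list's tested members for which the P3 library was the highest (right) or the lowest (left) of the 4, with the number tested in parentheses and the shares over all tested genes as dashed lines at 31.7% and 29.9%. Mitosis and DNA replication stand at the top with 29 of 30 and 28 of 32 genes, and P3 is lowest for 10 of 20 leukocyte and 9 of 11 erythroid genes.

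The second comparison asked which transcripts change steadily from P3 to P16, as a slope per doubling of age. No gene was called (0% rising and 0% falling of 17889, edgeR), and the smallest adjusted p was 0.0941. At an unadjusted p under 0.05 there were 965 rising genes (5.39%) and 1389 falling genes (7.76%). DESeq2 called 146 rising and 254 falling genes, and limma on log2(TPM + 1) none. Without the P9 library edgeR called 347 genes, without P7 191, without P16 5 and without P3 none. All slopes in the next paragraphs are thus values that did not pass. By order alone, 127 genes stood higher in each later library and at least 2-fold higher at P16 than at P3 (0.71%), and 180 lower (1.01%). Without P7 or P9, where fewer steps have to hold, these 307 genes became 988 and 990.

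Of the 5 falling genes taken by the rule for named genes (the smallest p at a mean of at least 5 CPM), Grb10 and Nnat are imprinted, that is, read from the copy of 1 parent. Grb10, an adaptor that dampens insulin and growth factor receptors (chromosome 11, 11930508 to 12038683, minus strand), stood at 71.0, 34.8, 34.6 and 17.6 CPM, a slope of -0.80 (SE 0.07). Nnat, a small membrane protein of neurons, stood at 155, 92.0, 78.8 and 67.1 CPM, a slope of -0.52 (SE 0.05). The noncoding RNAs Meg3 and Rian, which come from 1 imprinted cluster, stood at 33.2, 21.4, 21.6 and 6.82 CPM and at 34.7, 16.9, 17.7 and 6.35 CPM. Grb10, Meg3 and Rian share a shape in which P7 and P9 are level between a high P3 and a low P16. Of 22 tested imprinted growth genes P3 was highest for 15 and lowest for 3, against 31.7% and 29.9% of all tested genes. None was called (edgeR), and 5 of 20 stood in falling order against 5.91% of all genes. Igf2, the best known of them, had 1 read at P3 and 4 in the later libraries summed, while its TPM in the authors' table lay between 0.63 and 2.27. It overlaps an exon of a gene on the same strand, so its level is uncertain. Cdkn1c, a cell cycle inhibitor, was level at 29.5, 28.8, 28.6 and 27.2 CPM.

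The list of fetal timing genes, which work around Lin28 and the let-7 microRNAs, had 14 tested members. Igf2bp3, an RNA-binding protein of fetal tissue, stood at 7.94, 2.88, 1.85 and 0.157 CPM, a slope of -1.78 (SE 0.30). Its P16 value rests on 4 reads. Igf2bp2 of the same family stood at 72.4, 57.8, 52.4 and 44.8 CPM. Lin28b and Igf2bp1 were near 0 throughout, with 2 and 3 reads at P3. Hmga2, a let-7 target, stood at 9.84, 10.3, 9.61 and 5.65 CPM. A falling order was seen in 5 of the 14, against 5.91% of all genes.

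Further genes stood higher at P3 than at P16. Plppr5, a membrane protein of neurite growth, stood at 6.82, 2.59, 2.59 and 1.49 CPM. Gucy1b1, a subunit of soluble guanylyl cyclase, stood at 5.15, 3.81, 3.75 and 1.02 CPM. Ccdc88c, a Wnt pathway regulator, stood at 111, 73.2, 68.1 and 57.7 CPM. Igfbpl1, an insulin-like growth factor binding protein relative, stood at 12.1, 3.32, 3.55 and 2.16 CPM, with P9 slightly above P7. In the growth factor list, Id1 and Id3, inhibitors of bHLH factors, stood at 54.4, 36.7, 40.5 and 20.7 CPM and at 31.0, 20.4, 19.4 and 15.7 CPM, with Id1 higher at P9 than at P7. Dcc, a netrin receptor, stood at 8.48, 5.06, 3.51 and 2.86 CPM.

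In the rising direction the same rule, which leaves out receptors, took 5 genes, and several olfactory receptors had smaller p. Atp10d, of the lipid flippase family but marked in GENCODE as a polymorphic pseudogene, stood at 145, 195, 261 and 323 CPM. Its slope was 0.49 (SE 0.06). Bcl2, which protects cells from apoptosis, stood at 10.1, 16.4, 16.6 and 28.9 CPM, a slope of 0.61 (SE 0.09). The cytochromes Cyp4b1 and Cyp2j12 stood at 2.91, 5.18, 10.3 and 15.5 CPM and at 8.48, 12.0, 15.6 and 22.7 CPM. Stxbp5l, which binds syntaxins, stood at 21, 27.9, 31.8 and 41.0 CPM. Kirrel2, an adhesion molecule that sorts axons by activity, was level through P7 and stood highest at P16, with 305, 303, 378 and 684 CPM. Stmn4, a microtubule protein, did the same with 220, 216, 246 and 468 CPM, and Sema7a, a semaphorin, had 248, 186, 223 and 408 CPM.

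Some of the rising order falls on markers of other cells. Cd74, of antigen-presenting cells, stood at 1.71, 1.99, 2.70 and 5.88 CPM, and Slc4a1, the anion exchanger of red cells, at 0.116, 0.486, 0.579 and 5.69 CPM. Of the erythroid list P3 was lowest for 9 of 11 genes, against 29.9% of all tested genes. Of the leukocyte list 4 of 18 stood in rising order against 5.51% of all genes. Col1a1, a collagen of fibroblasts, stood at 20.1, 37.5, 26.5 and 78.8 CPM, and Col1a2 and Sparc were also highest at P16, at 87.0 and 34.3 CPM. The fibroblast list summed to 177, 197, 170 and 307 CPM, with a median log2 fold of 0.22. But P3 was highest for 9 of its 19 tested genes and lowest for 4, against 31.7% and 29.9% of all tested genes. The odorant-binding protein Obp1a of nasal glands stood at 0.542, 14.0, 0.309 and 47.3 CPM, and Dcpp3, a secreted gland protein, at 0.387, 3.56, 3.75 and 5.69 CPM. Both have near-identical relatives, so their counts are uncertain. Rgs5, of pericytes, went the other way with 156, 115, 122 and 56.0 CPM. The P16 library stood highest in the summed levels of the leukocyte, erythroid, fibroblast and gland lists. Their part in the trend with age was not tested.

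**Figure D4:**
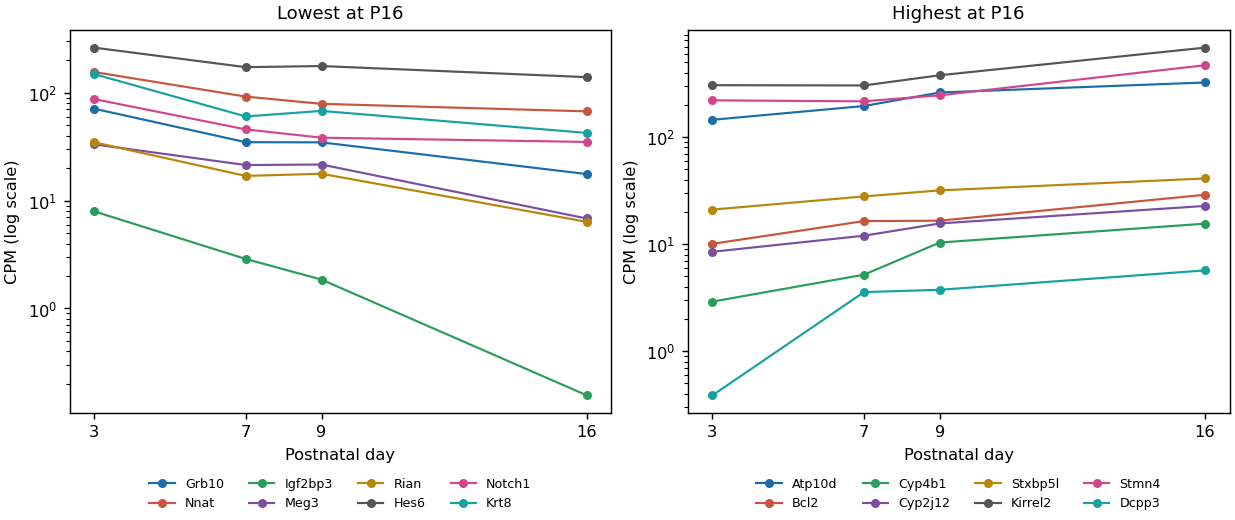
CPM (log axis) against postnatal day for 8 genes that stood lowest at P16 (left) and 8 that stood highest at P16 (right), 1 point per library. Igf2bp3 spans the widest range, from 7.94 CPM at P3 to 0.157 CPM at P16, and none of the slopes passed the edgeR test.

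Immature neuron, mature neuron and axon guidance genes showed no common step at P3. Synaptic vesicle genes were more often lowest than highest there. Over all tested genes P3 was highest for 31.7% and lowest for 29.9%. In the immature neuron list P3 was highest for 8 of 25 genes and lowest for 7, with a median log2 fold of 0.00 and none called (edgeR). Dcx, a microtubule protein of migrating neurons, stood at 753, 974, 905 and 889 CPM. Dbn1, drebrin, stood at 442, 334, 314 and 314 CPM. In the mature neuron list P3 was highest for 4 of 29 and lowest for 4, and the summed level was lowest at P7, with 13970 CPM against 16020 at P3, 18960 at P9 and 19210 at P16. Adcy3, the adenylyl cyclase of odour transduction, stood at 522, 288, 532 and 432 CPM, S100a5, a calcium-binding protein of active neurons, at 257, 99.5, 244 and 213 CPM, and Umodl1 at 415, 175, 399 and 296 CPM. These 3 and Omp were all lowest at P7. Of 32 synaptic vesicle genes P3 was lowest for 16 and highest for 6 (median -0.10). Of 47 axon guidance genes P3 was highest for 10 and lowest for 11.

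Olfactory receptor genes took 0.689% of counts at P3 (95% Wilson interval 0.686 to 0.693) and 0.821%, 0.846% and 0.855% at P7, P9 and P16. The intervals cover counting error only, and the 4 shares stood in the order of age. At least 1 CPM was reached by 1056 receptor genes at P3 and by 1101, 1083 and 1079 later. Of 1168 tested receptor genes P3 was lowest for 614 and highest for 120, with a median log2 fold of -0.32, against 29.9% lowest and 31.7% highest over all tested genes. None was called in either comparison (edgeR), and 163 of 1154 had a rising slope at an unadjusted p under 0.05 against 12 with a falling one, where the shares over all genes were 5.39% and 7.76%. Over 4 ages an exact permutation test of order cannot go below 0.0833, so no p is given for the shares. Reads shared between similar receptor genes make single receptors uncertain.

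Some genes other than the Y-linked ones were lowest at P3, and none passed. Bpifb3, a secreted protein of the nasal mucosa, stood at 2.83, 10.6, 10.2 and 11.4 CPM (log2 fold -1.92, SE 0.22, edgeR adjusted p = 0.0573). Cfap44, a protein of motile cilia and flagella, stood at 70.0, 122, 123 and 116 CPM (log2 fold -0.78, SE 0.09, adjusted p = 0.0571). Selenop, a selenium carrier, stood at 4.30, 8.67, 9.27 and 11 CPM. Of 19 respiratory cilia genes P3 was lowest for 10, against 29.9% of all tested genes, with Ccdc39 at 94.9, 135, 145 and 146 CPM. Nfix, a factor that works in the zonal identity of receptor choice, stood at 58.4, 60.0, 84.1 and 76.9 CPM.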

How the data were processed

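Poly(A) RNA of the 4 Neurog1-GFP pools, extracted with TRIzol, was sequenced from TruSeq Stranded mRNA libraries, per the labels' protocols. Per the submitters' processing notes the tools were bcl2fastq 2.18, STAR 2.6.1c and RSEM, and the build was mm10. No source used here states the annotation release, the strand setting or how multi-mapping reads were handled. The authors deposited a table of read counts for 54532 genes and a table of TPM, which is scaled for transcript length. Entries that name no gene held 26.2% to 27.2% of the counts of a library and were left out.

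The main test was edgeR 4.0.16 (R 4.3.3, quasi-likelihood, TMM, filterByExpr, Benjamini-Hochberg at 0.05), with 2 residual degrees of freedom. One fit took P3 against the mean of the later libraries (18682 genes), the other log2 of the postnatal day (17889 genes). P-values are two-sided, and folds carry standard errors from the F statistic. In simulated data the P3 fit called 83.9% of genes changed by log2 1 and all changed by 2 or 4 (18301 genes, 15 false calls), and the slope fit called 90.3% of genes with a slope of 0.5 (17657 genes, 9 false calls). Whether those shares of called genes hold for the measured libraries was not tested. In the measured libraries 0 of 17889 slopes passed, and Grb10, with a slope of -0.80 (SE 0.07), was among those that did not. Size descriptions use log2 CPM with a prior count of 2. The comparisons were also made with DESeq2 1.42.0 and with limma 3.58.1 on log2(TPM + 1) and log2(TPM + 0.1). Other scaling, no low-count filter, a linear day, a robust fit and leaving out each library were tried too.

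The population, the 37 gene lists (902 genes) and the rules were chosen with earlier results of these data known. Named genes are the markers, the 5 smallest slope p in each direction when none is called, the 10 widest P3 gaps, the 5 widest ordered changes, and up to 3 called and 3 widest-ranging members of each list, mostly with at least 5 CPM. Gene models, receptors and clones stay out of the ranked parts. A few of these are not reported here. Other genes were chosen after their values were seen, among them Hmox1, Cldn4, Nupr1, Ndrg1, Csrp1, Tnfaip3, Hsd17b2, Notch1, Hes6 and further list members. The counts of lists by where P3 stood, the order counts of any size, the promoter motif, the robust fit and the fit without Xist and Y-linked genes were also chosen after seeing the data. Positions are from GENCODE (GRCm38). Of 95 genes placed, 21 overlap an exon on the opposite strand, among them Neurod1, Ndrg1, Krt8, Hes5, Notch1, Dll4, Tead2, Nnat, Igf2bp3, Meg3, Ccdc88c, Bcl2, Adcy3, Slc2a1, Selenop and Xist, and 8 overlap one on the same strand. Reads of such pairs cannot be told apart here.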

Additional observations from a re-analysis of the deposited data

Results flagged for a closer look

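In 36 of 134 sets of 4 values tested, the highest or lowest library lay apart from the other 3 by a share of the range past Dixon's 95% limit. Chance flags about 1 in 20 sets, and the genes tested include those chosen for standing apart at P3. P3 was the high library in 30 of the 36, P3 the low one in 2 and P16 the high one in 4.

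For P3 high, the gap as a share of the range was 0.994 for Il6, 0.993 for Cxcl5, 0.985 for Lif, 0.984 for Cxcl2, 0.982 for Csf3, 0.978 for Ccl20 and 0.976 for Cxcl1. Among the other inflammation genes it was 0.968 for Steap4, 0.920 for Cd14, 0.913 for Serpina3n and 0.882 for Tnfaip3. Among stress, oxygen-response and epithelial genes it was 0.961 for Hsd17b2, 0.958 for Hmox1, 0.947 for Cldn4, 0.910 for Csrp1, 0.900 for Nupr1, 0.900 for Egln3 and 0.874 for Ndrg1. Among precursor, basal cell and Notch genes it was 0.941 for Rcor2, 0.904 for Mfng, 0.897 for Hes5, 0.896 for Neurod1, 0.843 for Lfng and 0.836 for Tead2. In the cell cycle it was 0.961 for Cdk1 and 0.845 for Pcna, and it was 0.859 for Igfbpl1. Igf2bp1 reached 1 on 3 reads at P3 and 0 elsewhere. The summed CPM of globose basal cell genes gave 0.938 and that of DNA replication genes 0.919.

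For P3 low the share was 0.849 for Bpifb3 and 0.854 for Cfap44. For P16 high it was 0.917 for Slc4a1, 0.866 for Lyz2, a myeloid lysozyme, 0.882 for Stmn4 and 0.923 for the summed CPM of leukocyte genes.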

How the results depend on the processing

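No fold or slope of the genes examined changed sign under the alternatives run. Of the summed list levels, P3 over later passed from under 1 to over 1 in TPM for NFI and zonal genes (0.981 to 1.05) and the other way for ensheathing glia (1.07 to 0.906) and sex-linked genes (1.18 to 0.893). The 0 calls of the age slope became 372 with no low-count filter and 400 by DESeq2, and ranged from 0 to 347 when single libraries were left out (347 without P9, 191 without P7, 5 without P16 and 0 without P3). The 19 calls of P3 against later became 328 by DESeq2, 11 and 2 by limma on log2(TPM + 1) and log2(TPM + 0.1), 192 by limma with no filter and 40 with the robust fit. Leaving out single later libraries gave 22 to 460 calls (460 without P9). Of the 19 genes, 14 were still called without P7, 19 without P9 and 15 without P16. Cdk1, Rcor2 and Hsd17b2 were lost without P7 and again without P16, Tnfaip3 and Csf3 without P7, and Cd14 without P16. The 271 genes with P3 apart became 1070 at 1.5-fold and 129 in TPM, and ranged from 385 to 528 without single libraries (528 without P9). The 307 genes in order of age became 713 and 151, and ranged from 329 to 990 (988 without P7, 990 without P9). With fewer libraries fewer steps have to hold, which is part of how these counts are built. The cause of the other shifts was not tested. No paired analysis was possible because each age has 1 library and the labels give no replicate numbers. With 1 library per age, the number of libraries limits the precision.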
